A study of Mus musculus with 148 samples.

Results

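The Ifit genes (interferon-induced proteins with tetratricopeptide repeats) were followed through the immune cells of a mouse model of spontaneous breast cancer lung metastasis. The 4 members Ifit1, Ifit2, Ifit3 and Ifit3b were taken by name from the 52634 gene rows of the single-cell count files. Female C57/b6 PA-GFP mice, whose cells carry a green fluorescent protein that light switches on, received EO771-tdTomato breast cancer cells into the mammary gland at 8 weeks of age. The primary tumor was resected 3 weeks later, and 23425 annotated immune cells from 27 mice and 63 mouse and tissue samples were analysed. The tissues were normal whole lungs of control mice (n = 3 mice), lungs of tumor-bearing mice before resection (Pre-MET, n = 3), lungs without metastasis after resection (relapse-free, n = 6), distal normal tissue of lungs with metastasis (n = 14), lung sections with metastasis (n = 13), the photoactivated invasive margin (n = 7) and core (n = 13) of metastases, and primary tumors (n = 4). All mice share the PA-GFP strain, and all tumors come from 1 cell line. Cells were sorted as CD31-CD45+, or as CD31-GFP+ after photoactivation, so that core and margin differ from the other tissues in gate as well as in place. The labels give no treatment or age for the control mice beyond their strain, and some labels depart from these groups: the core of mouse 17 was also gated on CD45 and the photoactivation target of its margin reads NON-MET, the margins of mice 31, 32, 33 and 36 carry the area label MET, and relapse-free mice 6 and 7 include photoactivation gates.

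Type I interferons bind a receptor on nearly every cell type, and the receptor's kinases activate transcription factors that bind a short element in the promoters of responding genes. Ifit genes are among the most inducible of these targets, and their products are cytoplasmic proteins that bind RNA and limit translation. Ifit1 recognises viral RNA whose cap lacks the methyl mark of host messages. Ifit3b is a close copy of Ifit3, and Ifit2 has been tied to antiviral defence and cell death. In tumors, the same genes serve as a readout of interferon signalling in myeloid cells, neutrophils and T cells.

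The members lie on the forward strand of chromosome 19 within 99.3 kb (GRCm38), in the order Ifit2 (34550694 to 34576419), Ifit3 (34583531 to 34588731), Ifit3b (34607970 to 34613401) and Ifit1 (34640871 to 34650009). All are protein-coding genes, and 2 relatives, Ifit1bl1 and Ifit1bl2, lie between them on the reverse strand. The promoters run from 250 bases before to 50 bases after a start listed for each gene. They are shown because these windows differ between members in an element of the kind that these factors bind. Capitals mark the 10 letters made of GAAA, any 2 bases and GAAA, searched on both strands. All matches found lie on the reverse strand and so read TTTC, 2 bases and TTTC here, and no match overlaps another. The sequences are from RefSeq (GRCm38.p6), 5′ to 3′.
Ifit1, chr19:34640639-34640938: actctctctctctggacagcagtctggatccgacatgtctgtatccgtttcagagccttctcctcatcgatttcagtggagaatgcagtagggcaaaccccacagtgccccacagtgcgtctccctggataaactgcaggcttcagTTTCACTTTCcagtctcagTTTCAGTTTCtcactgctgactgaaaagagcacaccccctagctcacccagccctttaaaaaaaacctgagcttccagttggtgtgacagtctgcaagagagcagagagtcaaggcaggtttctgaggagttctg
Ifit3, chr19:34583279-34583578: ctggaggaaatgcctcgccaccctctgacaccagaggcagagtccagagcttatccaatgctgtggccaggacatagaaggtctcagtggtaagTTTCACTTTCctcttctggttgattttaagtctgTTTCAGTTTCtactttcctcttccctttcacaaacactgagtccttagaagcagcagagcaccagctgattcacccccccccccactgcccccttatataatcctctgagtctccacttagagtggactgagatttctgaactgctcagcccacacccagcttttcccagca
Ifit3b, chr19:34607707-34608006: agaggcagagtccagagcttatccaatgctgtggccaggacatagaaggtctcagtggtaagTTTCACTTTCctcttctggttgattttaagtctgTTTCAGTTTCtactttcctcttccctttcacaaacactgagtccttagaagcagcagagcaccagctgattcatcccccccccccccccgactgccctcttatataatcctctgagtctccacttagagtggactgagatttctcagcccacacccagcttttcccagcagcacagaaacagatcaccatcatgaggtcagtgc
Ifit2, chr19:34550444-34550743: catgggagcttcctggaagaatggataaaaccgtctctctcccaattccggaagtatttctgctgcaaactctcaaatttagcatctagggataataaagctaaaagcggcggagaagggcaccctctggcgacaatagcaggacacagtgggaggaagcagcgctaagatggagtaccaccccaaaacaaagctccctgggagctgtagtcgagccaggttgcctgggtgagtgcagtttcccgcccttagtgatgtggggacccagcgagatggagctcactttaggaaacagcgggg
Ifit1, Ifit3 and Ifit3b each held 2 matches, the nearest 85, 122 and 154 bases before the start on which the window is placed. For these genes that start differs from the first base of the gene given above. At least 1 match was present in 1131 of all 32851 promoters (3.44%), against 17 of 36 promoters (47.2%) of the type I interferon response genes outside the family. Both shares were smaller for 2 or more matches, 0.225% of all promoters and 5 of these 36 (13.9%). The window of Ifit2 held none, nor did the window of a second listed Ifit2 start (chr19:34550838-34551137). Both lie near the first base of a gene of 25726 bases. Sequence farther into Ifit2 was not searched, so the lack of a match holds for these windows only. Laid side by side at 1 fixed offset without gaps, the Ifit3 and Ifit3b windows were identical at 201 of 268 positions (75.0%). Their runs of C differ in length, which puts the bases after them out of register, so this share understates their likeness.

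Ifit3 and Ifit3b also share transcript sequence. Of the 50-base windows of the Ifit3 transcript, 51.2% occur in Ifit3b, and of those of Ifit3b, 44.5% occur in Ifit3. Over the last 500 bases, where reads of a 3′ library fall, 14.9% of the Ifit3 windows were shared with Ifit3b and none of the Ifit3b windows with Ifit3, so counts of this pair are less certain than those of Ifit2, which shared none. Reads with several mapping positions had been excluded before counting. Because each UMI (unique molecular identifier) marks 1 captured 3′ end, a count does not grow with transcript length, and levels of the members are set side by side as UMIs per 1000000 UMIs (CPM) of all cells summed.

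Levels rest on sums over the cells of 1 label or lineage in 1 mouse and tissue, with 10 or more cells: 510 sums of 26 subpopulation labels (20520 cells) and 316 sums of 7 lineages. Samples held 55 to 1974 immune cells. The median UMIs per cell, at the middle sample of each tissue, ran from 812 to 1201 in the lung tissues and was 3525 in primary tumors, so primary tumors were counted more deeply. Each lineage expressed its own marker list, with no marker of it at 0, and no 2 cells shared their counts or well names. In a lineage sum, more cells of a high subpopulation and more RNA per cell cannot be told apart.

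The 4 members together contributed 28202 UMIs. Ifit3 was the most abundant, with 12440 UMIs (44.1% of the family) in 2148 cells, followed by Ifit1 with 7472 UMIs (26.5%) in 1744 cells. Ifit2 had 4416 UMIs (15.7%) in 959 cells and Ifit3b 3874 UMIs (13.7%) in 1091 cells. No row of the files joined a member to another symbol, and the 2 relatives had 3372 (Ifit1bl1) and 888 (Ifit1bl2) UMIs.

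By subpopulation, over sums of all tissues, the mean of Ifit3 was highest in neutrophil labels, in Mon_Thbs1 monocytes and in Mac_Isg20 macrophages. The mean was 1430 ± 1773 CPM (SD, n = 5 sums) in Neut_PMN-MDSC, 759 ± 1002 (n = 29) in Neut_Ptgs2 and 732 ± 690 (n = 25) in Mon_Thbs1. Mac_Isg20 macrophages reached 667 ± 725 (n = 15) and Neut_Ifit3 neutrophils, whose name the study took from this gene, 602 ± 601 (n = 16). Each of these SDs is close to or above its mean, so single mice within a subpopulation spanned the whole range, as from 0 to 4231 CPM in Neut_Ptgs2. Labels are spread unevenly over tissues, and the order changed within them: Neut_Ifit3 was above Neut_Ptgs2 in Pre-MET lungs (599 ± 650, n = 2, against 143 ± 168, n = 3) and distal tissue (672 ± 338, n = 3, against 559 ± 559, n = 6) but below it in metastasis (322 ± 250 against 493 ± 229, n = 6 each). Neut_Ifit3 was also above in relapse-free lungs (233 ± 128, n = 3, against 153 ± 70.8, n = 5) and margin (2201, n = 1, against 845 ± 877, n = 2). In the core it was below (1588, n = 1, against 2820 ± 1792, n = 3). In primary tumors Mon_Ace monocytes (1025 ± 638, n = 2) and T_CD8_Gzmk cells (1013 ± 196, n = 3) had higher means than Mon_Thbs1 (755 ± 905, n = 4).

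A middle tier held T_Treg regulatory T cells at 331 ± 263 CPM of Ifit3 (n = 7), DC_cDC2 dendritic cells at 319 ± 342 (n = 16), Neut_Lcn2 neutrophils at 309 ± 363 (n = 24) and T_CD8_Gzmk effector T cells at 230 ± 321 (n = 45). Mon_Fn1 monocytes had 124 ± 196 (n = 54). The lowest means were those of NK_Ncr1 cells (27.4 ± 64.9, n = 40), DC_cDC1 (26.1 ± 58.4, n = 5) and DC_migDC dendritic cells (10.1 ± 10.8, n = 3), T_CD8_Gzma cells (8.43 ± 16.6, n = 8) and Mac_Cd9 macrophages (1.59 ± 5.26, n = 11). Neut_Camp neutrophils had no Ifit3 UMI in 4 sums of 51 cells, which allows up to 25.3 CPM at 3 counts in those sums, but all 98 cells of the label held 12 Ifit3 UMIs, in 4 cells outside the sums. In the order of means, all 25 neighbouring pairs differed by less than the larger SD of the pair. The same held for Ifit1 and Ifit2, and for 24 of 25 pairs of Ifit3b, where the remaining pair (DC_migDC and Mac_Cd9) tied at 0 CPM. Labels were made by clustering these cells, so label differences are description and were not tested.

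**Figure D1:**
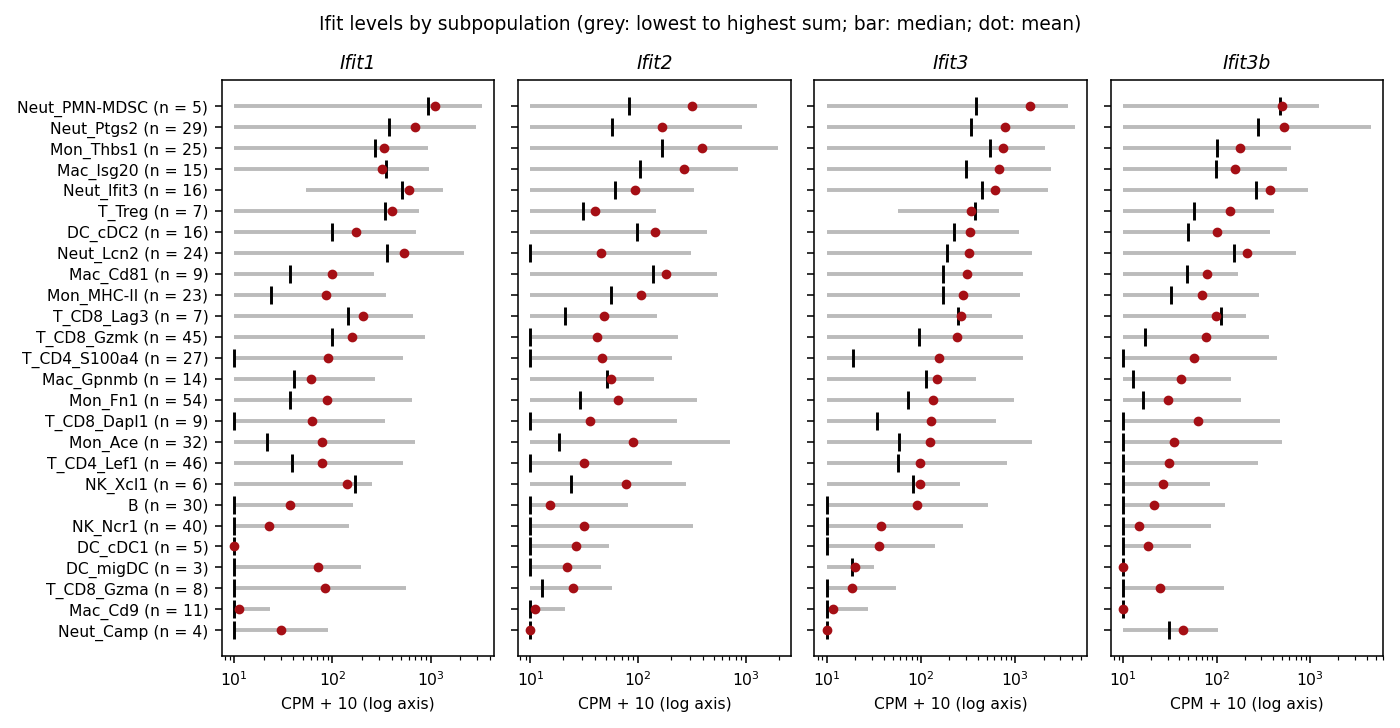
Level of each Ifit gene (CPM + 10, log axis) in every subpopulation label, with n sums of 10 or more cells; grey lines span the lowest to the highest sum, black bars are medians and red dots are means. For Ifit3 the means run from 1430 CPM in Neut_PMN-MDSC to 1.59 CPM in Mac_Cd9 and 0 in Neut_Camp, and the lines of neighbouring labels overlap.

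The other members followed this order in part. Ifit1 was highest in the neutrophil labels other than Neut_Camp, whose mean was among the lowest. The Ifit1 mean was 1096 ± 1360 CPM (n = 5) in Neut_PMN-MDSC, 684 ± 745 (n = 29) in Neut_Ptgs2 and 590 ± 400 (n = 16) in Neut_Ifit3. In Neut_Lcn2 neutrophils Ifit1 exceeded Ifit3 (532 ± 573 against 309 ± 363, n = 24). Ifit3b was likewise led by neutrophils, with 514 ± 867 CPM (n = 29) in Neut_Ptgs2. For Ifit2, Mon_Thbs1 had the highest mean, 377 ± 456 CPM (n = 25), followed by Neut_PMN-MDSC at 303 ± 539 (n = 5), Mac_Isg20 at 254 ± 289 (n = 15) and Mac_Cd81 at 171 ± 189 (n = 9), with 154 ± 248 (n = 29) in Neut_Ptgs2 and 35.4 ± 71.3 (n = 24) in Neut_Lcn2. In the core alone, Neut_Ptgs2 had 603 ± 453 CPM of Ifit2 (n = 3) and Mon_Thbs1 400 ± 351 (n = 8).

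The family's make-up differed between neutrophils and mononuclear phagocytes. Of the 8107 member UMIs in neutrophils, Ifit2 was 5.53%, Ifit3b 21.4%, Ifit1 34.8% and Ifit3 38.2%. Of the 10406 in monocytes, Ifit2 was 22.5%, Ifit3b 9.42%, Ifit1 22.2% and Ifit3 45.8%. Macrophages resembled monocytes (Ifit2 21.7% and Ifit3b 10.2% of 4253 UMIs), and T cells lay between, with 10.2% Ifit2 and 13.5% Ifit3b of 3554 UMIs.

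The contrast was also present sum by sum, among sums of 20 or more member UMIs. The Ifit2 share had a median of 3.52% in neutrophils (0 to 17.1%, n = 30 sums) and 19.1% in monocytes (0 to 37.8%, n = 36). The Ifit3b share had a median of 21.4% (3.85 to 45.8%) in neutrophils and 9.32% (1.35 to 25.0%) in monocytes. The ranges of both shares overlapped. By tissue, Ifit2 made up 2.63% to 9.06% of the neutrophil member UMIs in the 8 tissues and 16.0% to 24.2% of the monocyte ones, apart from Pre-MET monocytes at 4.67% of 107 UMIs.

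**Figure D2:**
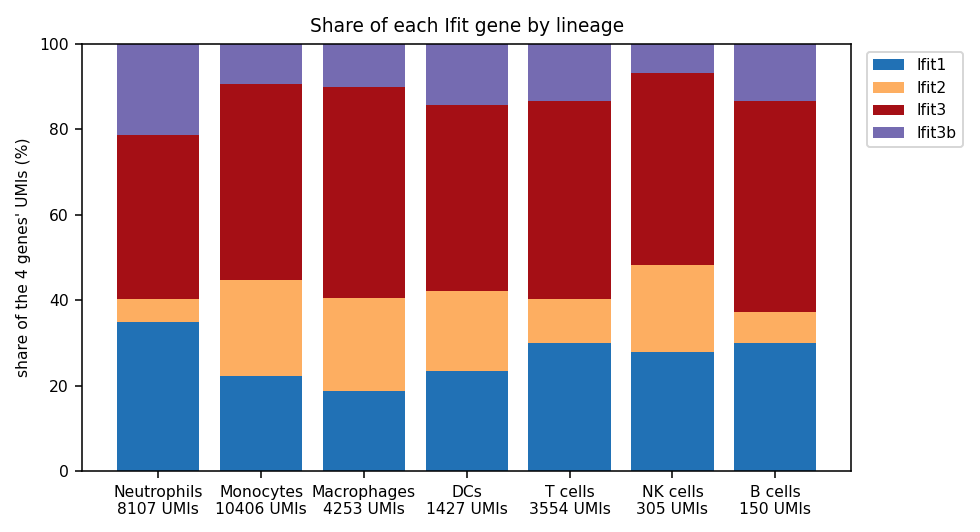
Share of each Ifit gene among the member UMIs (percent, bars from 0 to 100) of each lineage, with the number of member UMIs under each bar. Ifit2 takes 5.53% in neutrophils and 22.5% in monocytes, and Ifit3b takes 21.4% and 9.42%.

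Most cells held no member UMI. After each cell was thinned to 500 UMIs, Ifit3 was detected in 11.7% of neutrophils (95% exact binomial interval 10.7 to 12.7%), 7.87% of macrophages (6.67 to 9.22%), 5.30% of dendritic cells (3.96 to 6.93%), 4.96% of monocytes (4.44 to 5.53%) and 3.94% of T cells (3.50 to 4.43%). NK cells (1.39%) and B cells (1.23%) were lowest. Of the 592 wells left without a cell, at a mean of 14.3 UMIs, 0.507% held an Ifit3 UMI. At that depth the share cannot be set against cells of 500 UMIs. Their 3 Ifit3 UMIs of 8490 amount to 353 CPM, against 278 CPM over all labelled immune cells. The order depended on the tissue: in metastasis the share was 9.02% of macrophages (6.70 to 11.8%) and 7.40% of neutrophils (5.62 to 9.53%), with overlapping intervals, and in primary tumors 3 of 49 NK cells held Ifit3 (6.12%, 1.28 to 16.9%). Unthinned, over all tissues, the shares were 16.1% of neutrophils (median 989 UMIs per cell), 13.9% of macrophages (median 1673) and 10.4% of monocytes (median 1452). The intervals cover counting error only. In Mac_Cd9, 0 of 439 thinned cells held any member, which allows up to 0.837% of cells with a UMI at this depth, and unthinned 2 cells held Ifit3 and 2 held Ifit1, while 15.0% of Mac_Isg20 macrophages held Ifit3.

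Some single cells held all 4 members: 109 of 6308 monocytes, 50 of 1791 macrophages, 49 of 3972 neutrophils, 17 of 6846 T cells and 15 of 943 dendritic cells. Unthinned depth differs between these lineages. No NK or B cell held all 4. The highest total in 1 cell was 363 member UMIs, in a monocyte.

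Over the 510 label sums, the genes most like the members were other members and interferon-induced genes. Pearson's r on log2(CPM + 10) among 6908 genes with a mean of 20 CPM or more was highest for Ifit1 with Ifit3 (0.74) and Ifit3b (0.72), and for Ifit3 with Ifit1 (0.74), Ifit3b (0.73), Isg15, a ubiquitin-like modifier (0.67), Rsad2, the antiviral viperin (0.66), and Isg20, an exonuclease (0.62). Ifit2 stood apart: after Ifit3 (0.61) its closest genes were Cxcl10, a T cell attracting chemokine (0.60), Rsad2 (0.55), Ifi211 (0.53) and Oasl1 (0.52). The lowest correlation between members was that of Ifit2 with Ifit3b (0.49). These values describe sums that share mice, plates and depth, and carry no p.

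Across tissues, the mean of Ifit3 was highest in the metastasis core in neutrophils and in primary tumors in monocytes, macrophages and T cells. In neutrophils the level was 1285 ± 1221 CPM in the core (n = 6), 356 ± 202 in metastasis (n = 9), 367 ± 293 in distal normal tissue (n = 9), 477 ± 616 in the margin (n = 5), 166 ± 74.3 in relapse-free (n = 5), 298 ± 170 in Pre-MET (n = 3) and 536 ± 262 in control lungs (n = 3), and the 2 primary tumor sums had 0 and 2067 CPM. In monocytes it was 650 ± 453 in primary tumors (n = 4), 420 ± 483 in the core (n = 13), 279 ± 225 in metastasis (n = 13) and 148 ± 206 in the margin (n = 6). Distal normal (43.7 ± 32.1, n = 14), relapse-free (56.6 ± 35.0, n = 6) and Pre-MET monocytes (32.9 ± 22.6, n = 3) were lower, and control monocytes had 119 ± 94.9 (n = 3).

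In T cells, Ifit3 ran from 9.84 ± 11.0 CPM in control lungs (n = 3) to 432 ± 180 in primary tumors (n = 4), with 232 ± 283 in the core (n = 13) and 185 ± 104 in the margin (n = 6). In macrophages it was 0 in all 3 control lungs, where 172 cells allow up to 6.29 CPM at 3 counts, with 506 ± 500 in the core (n = 10) and 526 ± 468 in primary tumors (n = 4). The order of tissues was not the same in each lineage: the neutrophil mean in distal tissue (367 CPM) was above the monocyte mean in metastasis (279 CPM), and the neutrophil mean was higher in control lungs than in metastasis, with overlapping values.

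**Figure D3:**
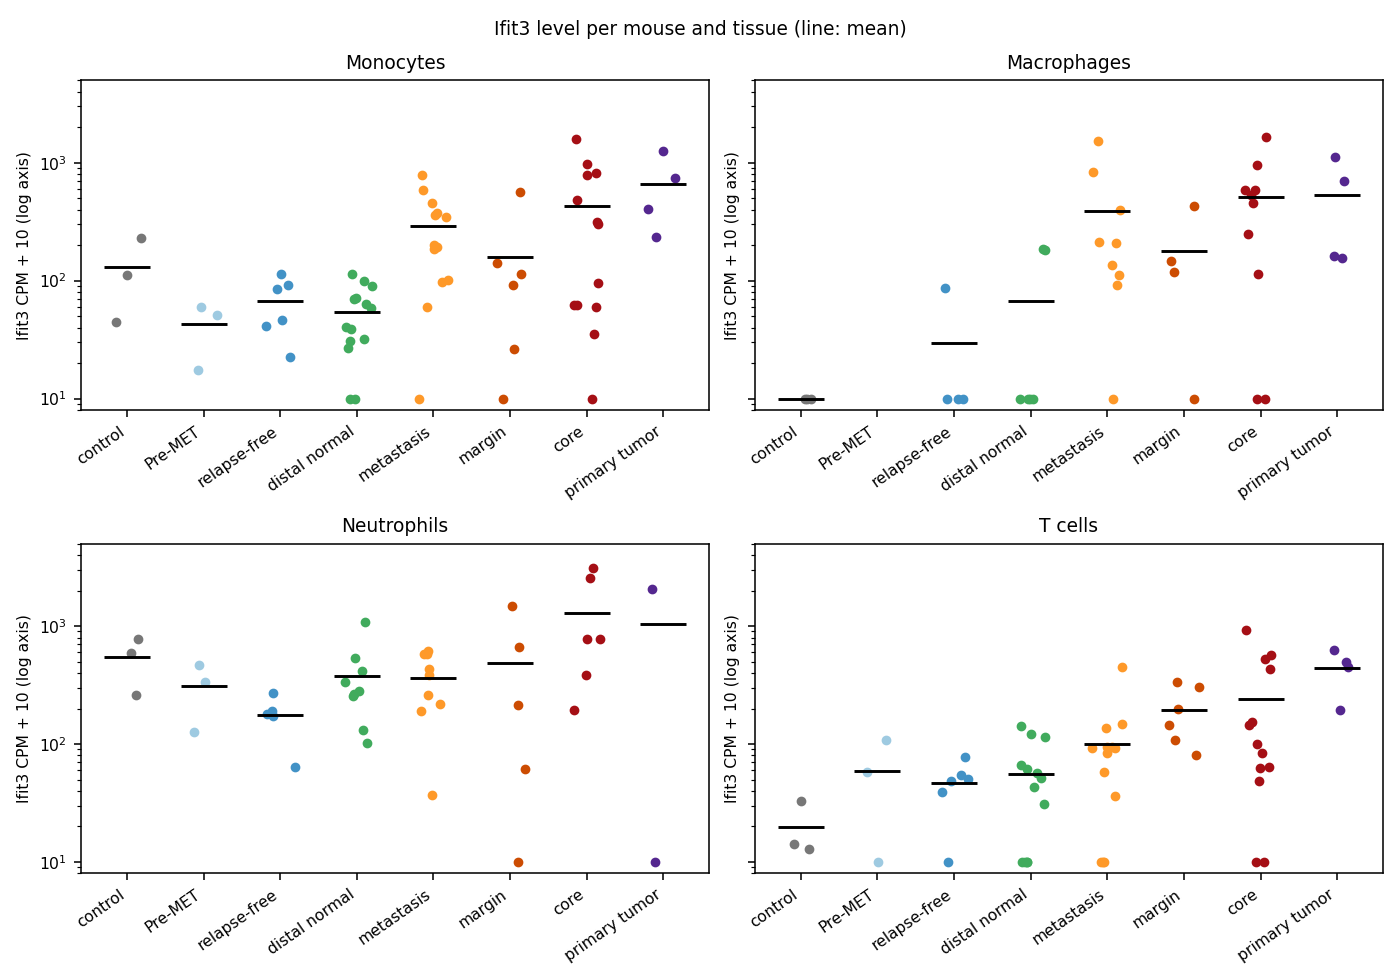
Ifit3 level (CPM + 10, log axis, so that a sum with no Ifit3 UMI lies at 10) in every mouse and tissue sum of 4 lineages; points are sums and bars are means. The means of monocytes, macrophages and T cells are highest in core and primary tumor, while control neutrophils already have a mean of 536 CPM; 1 of the 2 primary tumor neutrophil sums holds no Ifit3.

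The comparisons between tissues used edgeR's quasi-likelihood test on all genes of a lineage with Benjamini-Hochberg adjustment, and a gene was called at an adjusted p under 0.05. Changes are log2 of the second tissue over the first. Members that failed edgeR's filter on low counts were not tested, and a member can pass that filter through its high group alone. The comparisons of distal normal tissue with relapse-free lungs, metastasis and core share the distal samples, and those of Pre-MET and relapse-free lungs share the control samples.

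The first question was whether metastasis changed the family relative to distal normal tissue of the same lungs. Monocyte Ifit3 was 0 CPM at the lowest, 39.2 at the median and 103 at the highest of 14 distal samples, and 0, 192 and 772 CPM in 13 metastasis samples. In metastasis, 9 of 13 samples were above every distal sample, and 12 of the 13 mice with both tissues were higher in metastasis. Ifit3 rose 5.72-fold in monocytes (log2 2.52 ± 0.41 SE, edgeR quasi-likelihood test, adjusted p = 0.000659), and with the mouse as a block by log2 2.62 ± 0.34 (adjusted p = 1.63e-06). Ifit3 was the 1 member called among 5 tested pairs of member and lineage of 28, where 2.61% of all gene and lineage pairs were called and 1.48% of the genes tested in monocytes.

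The other members had monocyte levels that also differed between these tissues, but too few counts to pass the filter. Ifit2 had a median of 16.0 CPM in distal tissue (0 to 61.1) and 71.9 in metastasis (0 to 407), with 11 of 13 mice higher. Ifit1 had a median of 23.7 CPM (0 to 135) and 92.5 (5.52 to 342), with 12 of 13 mice higher, and Ifit3b 7.63 (0 to 48.6) and 36.0 (0 to 177), with 9 of 13. The 2 tissues overlapped for each of the 3 genes. Without the filter all 4 members were called in monocytes by the edgeR quasi-likelihood test, at log2 changes of 1.36 (Ifit1, adjusted p = 0.0171), 2.42 (Ifit2, adjusted p = 3.53e-07), 2.47 (Ifit3, adjusted p = 2.99e-11) and 2.10 (Ifit3b, adjusted p = 0.00324), where 1.44% of genes were called.

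Macrophages had few cells in distal tissue, and 4 of the 6 distal sums held no Ifit3. The distal values were 170, 0, 0, 176, 0 and 0 CPM in mice 17, 23, 26, 28, 30 and 33, against 0, 198 and 1526 CPM at the lowest, median and highest of 9 metastasis samples, 5 of which were above all distal ones. The change of Ifit3, log2 2.48 ± 0.95 SE, was not called (edgeR, adjusted p = 0.109), and it was 1.72 without mouse 37 and 3.15 without mouse 17. With the mouse as a block, over the 5 mice with both tissues, it was called at log2 2.92 ± 0.85 (edgeR, adjusted p = 0.0133), where 11.8% of macrophage genes were. As most distal sums hold no Ifit3, this fold and that to the core below rest mainly on counts of the second tissue. Their size is therefore uncertain. Without the filter Ifit1 (2.31), Ifit2 (4.41) and Ifit3 (2.91) were called by edgeR in macrophages and Ifit3b (1.95) was not, where 2.68% of genes were called.

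No change of Ifit3 was called in neutrophils. Their Ifit3 was 91.4 CPM at the lowest, 271 at the median and 1064 at the highest of 9 distal samples, and 26.7, 372 and 600 CPM in 9 metastasis samples. No metastasis sample lay above the distal range. The change was log2 -0.05 ± 0.43 SE (95% interval -0.89 to 0.80, edgeR adjusted p = 0.999), and Ifit1 had an estimated log2 change of 0.50 ± 0.44 (edgeR adjusted p = 0.999). The highest distal value came from mouse 17, and without it the Ifit3 estimate was 0.52 ± 0.41 (edgeR adjusted p = 0.987). The estimate also turned positive with the mouse as a block (0.55 ± 0.41, adjusted p = 0.991) and with a batch term (0.82 ± 0.47, adjusted p = 0.999), and 4 of the 6 mice with both tissues were higher in metastasis. In the 6 mice with both lineages in both tissues, the change on the log2(CPM + 10) scale was larger in monocytes than in neutrophils in 6 of 6, by 2.30 on average (SD 1.66). An exact sign-flip test gave p = 0.03125, the smallest possible with 6 mice, and an adjusted p of 0.118 over the 4 lineage pairs compared, so the difference between the lineages did not pass the correction. In the other pairs monocytes exceeded NK cells by 3.43 on average (5 of 5 mice) and T cells by 1.71 (9 of 12). Against macrophages the mean difference was -0.09 (above 0 in 3 of 5 mice). None of these passed the correction.

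**Figure D4:**
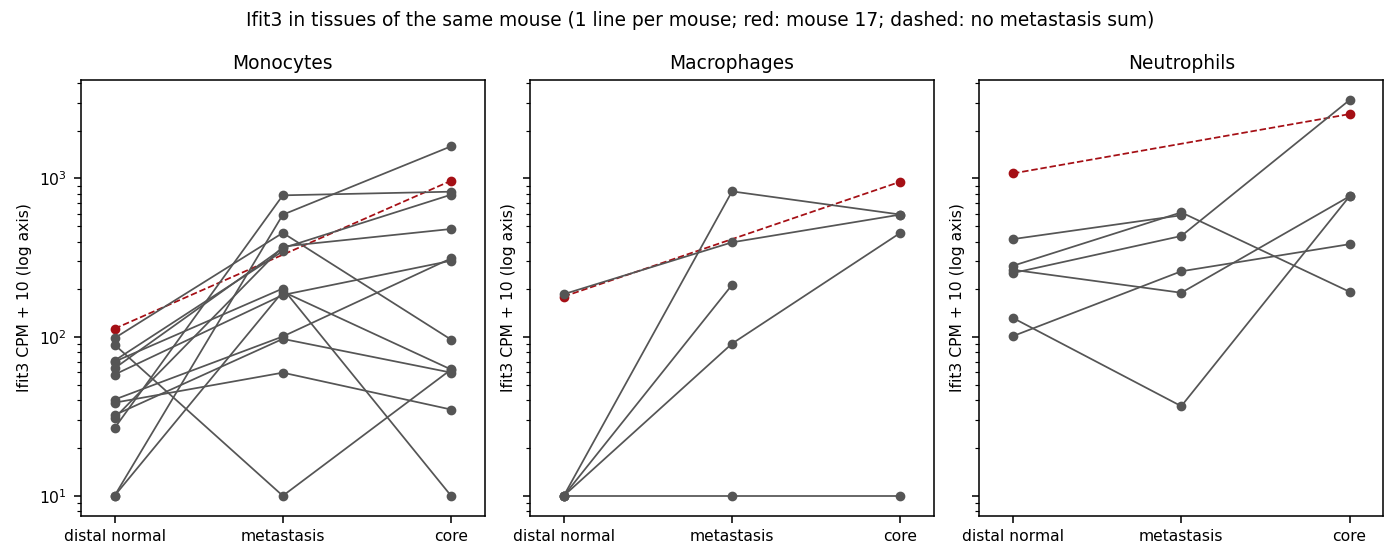
Ifit3 level (CPM + 10, log axis) in distal normal tissue, metastasis and metastasis core of the same mouse; each line is 1 mouse, dashed where no metastasis sum exists, and mouse 17 is red. From distal tissue to metastasis 12 of 13 mice go up in monocytes and 4 of 6 in neutrophils; mice without a distal sum or with only that sum are not drawn.

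Set against the photoactivated core in place of the whole metastasis section, a comparison chosen after these data were seen, Ifit3 was called in macrophages as well as monocytes. Core monocytes had 0, 293 and 1581 CPM of Ifit3 at the lowest, median and highest of 13 samples, 7 of them above all distal samples and 9 of the 13 mice with both tissues higher in the core. The mean paired change was 2.18 (SD 2.66) on the log2(CPM + 10) scale, against 2.25 (SD 2.24) for metastasis. Core neutrophils had 2530, 761, 3104, 760, 183 and 375 CPM in mice 17, 26, 28, 30, 36 and 37. Of the neutrophil values, 2 of 6 exceeded all distal ones. Ifit3 was called in monocytes (log2 3.19 ± 0.46 SE, edgeR adjusted p = 3.07e-06, where 8.1% of genes were called) and in macrophages (2.86 ± 0.92, adjusted p = 0.0394, where 11.6% were). These were 2 of 5 tested pairs of 24, where 5.93% of all pairs were called. In neutrophils it reached 2.00 ± 0.54 (edgeR adjusted p = 0.0513), and with the mouse as a block 1.89 ± 0.39 (adjusted p = 0.00812, where 2.1% were called). Core cells were gated on GFP and distal cells on CD45; the part of the gate in these differences was not tested.

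Subpopulation shares also differed between these tissues. Mon_Thbs1, the monocyte label highest in Ifit3, had a median share of 2.91% of monocytes in distal tissue, 23.9% in metastasis and 35.7% in the core, while Mon_Fn1 went from 73.9% to 47.3% and 33.3%. Among macrophages, the nearly Ifit-free Mac_Cd9 went from a median of 71.3% in distal tissue to 3.57% in metastasis, and Mac_Isg20 went from 7.42% to 44.0%. Among neutrophils, Neut_PMN-MDSC went from a median of 0% in distal tissue to 3.77% in metastasis and 19.9% in the core, and Neut_Lcn2 from 54.2% to 33.9% and 23.6%. Neut_Ptgs2 had medians of 32.2%, 45.8% and 45.0%, and Neut_Ifit3 6.59%, 15.4% and 5.72%, lowest in the core. Neutrophil marker genes within monocyte sums had a median summed level of 987 CPM in distal tissue, 859 in metastasis and 497 in the core. The part of these shares and marker levels in the lineage differences was not tested.

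Within subpopulations no member was called between distal tissue and metastasis. As labels come from clustering these cells' own expression, a cell's Ifit level may enter its label. A lack of calls within labels, here and between margin and core below, therefore does not show a lack of change. The edgeR test covered 6 of 40 member and label pairs, and 0 were called by DESeq2, where 0.0208% of all gene and label pairs were called by edgeR. An unadjusted p under 0.05 was found for 0 of the 6 and for 130 of all 4811 pairs. All 6 were in neutrophil labels, with log2 changes from -0.53 to 0.57. In Mon_Fn1, Ifit3 averaged 34.0 ± 34.2 CPM in distal tissue (n = 13) and 141 ± 231 in metastasis (n = 13), the latter range reaching 898 CPM, and did not pass the filter. Without the filter its change was log2 0.91 (edgeR adjusted p = 0.450) and that of Ifit2 1.27 (adjusted p = 0.363). Mon_Thbs1 had 809 ± 705 CPM in metastasis (n = 10) and 880 ± 642 in the core (n = 8), and only 1 distal sum, at 129 CPM, so it could not be compared.

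**Figure D5:**
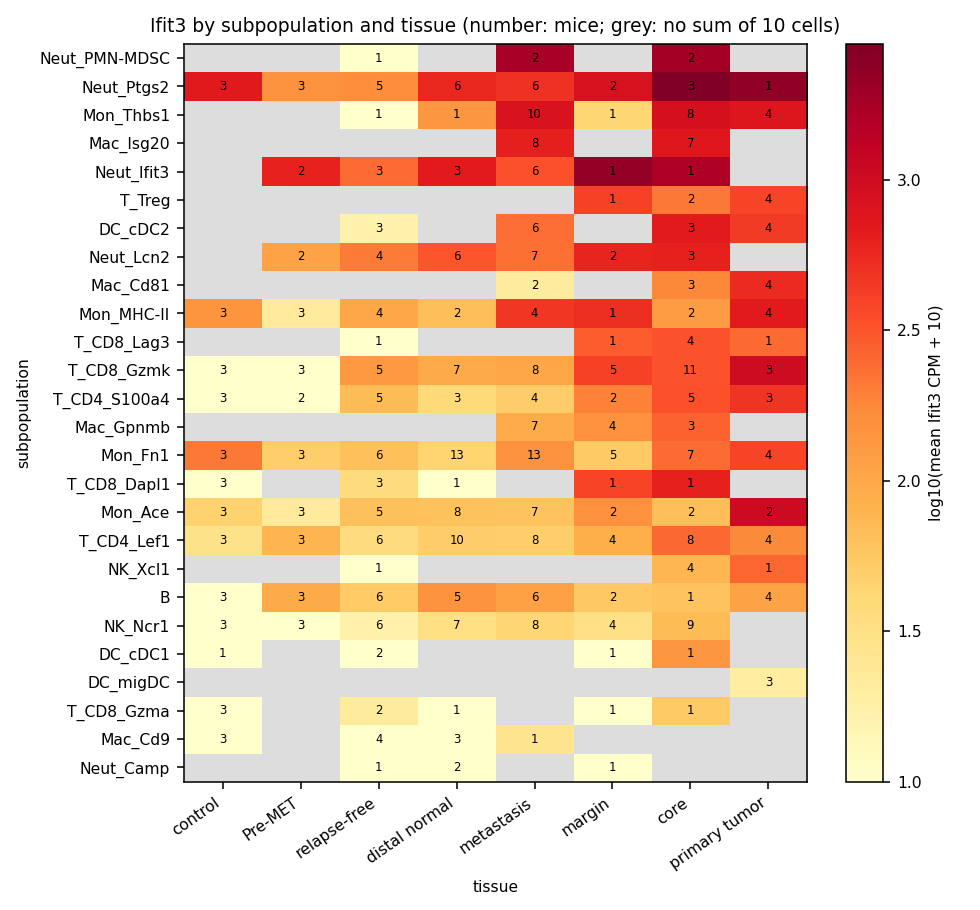
Mean Ifit3 level (color, log10 of CPM + 10) by subpopulation label and tissue; numbers are mice and grey marks no sum of 10 cells. Neut_Ptgs2 reaches 2820 CPM in the core, Mon_Thbs1 lies between 755 and 880 CPM in metastasis, core and primary tumor, and Mac_Cd9 lies at 0 except for 1 metastasis sum at 17.4 CPM.

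Sequencing batches allowed the monocyte difference to be read within 3 of them. In the batch SB118 the mean was 30.0 CPM in distal tissue (0 to 60.0, n = 7) and 398 in metastasis (90.9 to 772, n = 5). It was 40.7 (0 to 79.6, n = 4) and 169 (0 and 338, n = 2) in SB124. In SB128 it was 68.3 (48.0 and 88.5, n = 2) and 222 (87.4 to 443, n = 4). Metastasis had the higher mean in all 3, but in SB124 1 of its 2 samples held no Ifit3. The batch SB112 held distal but no metastasis samples, and 2 batches held metastasis but no distal samples. For the core the batches differed: the mean was 584 CPM in SB118 (n = 6), 189 in SB128 (n = 2) and 51.6 in SB124 (n = 3), the last close to the distal mean of that batch, and in SB112 the 1 core sample had 956 CPM and the 1 distal sample 103, both of mouse 17. In neutrophils, distal tissue and metastasis averaged 237 (n = 4) and 274 CPM (n = 3) in SB118, and 181 (n = 2) and 497 CPM (n = 4) in SB128.

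Other interferon response genes were read from a list of 44 that leaves out the family. Between distal tissue and metastasis 5 of 29 tested were called higher and 0 lower in monocytes (median log2 change 0.48, against 0.00 over all genes tested), where 1.48% of all genes tested in monocytes were called. In macrophages 4 of 16 were called higher (1.49 against 0.15), where 9.54% of all genes were called. In neutrophils 0 of 16 were called, where 0.0% of all genes were. Monocyte Cxcl10 averaged 51.8 ± 63.2 CPM in distal tissue and 414 ± 331 in metastasis and rose by log2 2.78 (edgeR adjusted p = 0.00198), Isg20 by 1.78 (adjusted p = 0.00648) and Isg15 by 1.79 (adjusted p = 0.0356). In macrophages Isg15 rose by 2.89 (edgeR adjusted p = 0.0360). The ligands were nearly unseen: Ifnb1 had 2 UMIs in all immune cells, Ifna2 had 1, and Ifna1, Ifna4, Ifna5 and Ifna6 had 0. The receptor subunits Ifnar1 and Ifnar2 had 2935 and 1958 UMIs, and none of the 8 tested pairs of receptor and lineage or 4 of nucleic acid sensor and lineage was called. Of 6 pairs of negative regulator and lineage, 2 were called higher; both were Isg15, which is in this list and in the response list.

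The second question was whether lungs before metastasis already differed. Monocyte Ifit3 was 102, 222 and 34.6 CPM in the 3 control lungs and 7.32, 49.9 and 41.6 CPM in the Pre-MET lungs of mice 8, 9 and 10. The ranges overlapped. The change was log2 -1.93 ± 0.64 SE and was not called (edgeR adjusted p = 0.109). Neutrophil Ifit3 was 770, 585 and 253 CPM in control lungs and 326, 116 and 453 CPM in Pre-MET lungs, a log2 change of -0.82 ± 0.73 (edgeR adjusted p = 0.712). None of 3 tested member and lineage pairs of 24 was called, by edgeR or DESeq2, where 2.42% of all pairs were called. An unadjusted p under 0.05 was found for 1 of the 3 and for 1687 of all 11338 pairs. Of the other response genes, 4 of 35 were called lower in monocytes, where 4.32% of all monocyte genes were called, Isg20 among the 4 (log2 -1.46, edgeR adjusted p = 0.0394). Subpopulation shares differed as well: from control to Pre-MET lungs the median share of Mon_Ace went from 60.4% to 23.7% of monocytes and that of Mon_Fn1 from 23.8% to 70.1%, and among neutrophils Neut_Ptgs2 went from 83.9% to 31.6% and Neut_Ifit3 from 0% to 32.9%. Their part in the levels was not tested. All control lungs were in 1 sequencing batch that held no other group, so these differences and the batch cannot be told apart. Without control mouse 3 monocyte Ifit3 was called, at log2 -2.34 (edgeR adjusted p = 0.0387), and without control mouse 2 the estimate was -1.09.

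By tissue mean, neutrophil Ifit3 was lowest in relapse-free lungs, although single sums of other tissues were lower. The 5 values were 54.2, 181, 263, 169 and 163 CPM in mice 11, 18, 35, 6 and 7, and 4 of them lay below all 3 control lungs. The change from control was log2 -1.47 ± 0.65 SE for Ifit3 (edgeR adjusted p = 0.480) and -1.80 ± 0.68 for Ifit3b (adjusted p = 0.390), the latter -0.81 without control mouse 2. T cell Ifit3 went the other way, with 22.6, 2.88 and 4.06 CPM in control lungs and 0 to 68.1 CPM (median 39.5) in relapse-free lungs, an estimated log2 change of 2.03 ± 0.79 (edgeR adjusted p = 0.854), which was 3.50 without control mouse 1. None of 6 tested pairs of 28 was called by edgeR or DESeq2, where 0.0282% of all pairs were called. An unadjusted p under 0.05 was found for 3 of the 6 and for 1181 of all 21277 pairs. Here too the control batch and the group cannot be told apart.

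From relapse-free lungs to distal normal tissue of lungs with metastasis, neutrophil Ifit3 had an estimated log2 change of 1.18 ± 0.48 SE (edgeR adjusted p = 0.501), with 5 of 9 distal samples above all relapse-free ones, and of 0.57 without mouse 17. Monocyte Ifit3, at 12.5 to 103 CPM in relapse-free and 0 to 103 CPM in distal tissue, had an estimated log2 change of -0.30 ± 0.46 (95% interval -1.20 to 0.59, edgeR adjusted p = 0.881). None of 4 tested pairs of 28 was called by edgeR or DESeq2, where 0.283% of all pairs were called. An unadjusted p under 0.05 was found for 1 of the 4 and for 893 of all 10604 pairs.

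The third question concerned position within a metastasis. Macrophage Ifit2 was 0, 0, 29.0 and 36.2 CPM in the margins of mice 17, 32, 33 and 36, and 0, 190 and 565 CPM at the lowest, median and highest of 10 core samples. The change, log2 3.44 ± 1.06 SE, was the largest of any member here and was not called (edgeR adjusted p = 0.192), and it was 2.65 without mouse 17. Monocyte Ifit3, at 131, 16.2, 103, 81.7, 0 and 556 CPM in the 6 margins, had an estimated log2 change of 1.25 ± 0.73 (95% interval -0.18 to 2.68, edgeR adjusted p = 0.743) and of 2.42 ± 0.82 without mouse 36 (adjusted p = 0.249). Estimates were also positive, and not called, for neutrophil Ifit3 (1.29 ± 0.85, edgeR adjusted p = 0.576; 0.71 without mouse 28 and 2.48 without mouse 17) and T cell Ifit3 (0.34 ± 0.63, adjusted p = 0.998). Of 12 tested pairs of 20, 11 were higher in the core in the estimate. A pair can pass the filter through the core alone, so this count of directions was not read as a rise. By edgeR or DESeq2 0 were called, where 0.0217% of all pairs were called. An unadjusted p under 0.05 was found for 1 of these pairs and for 314 of all 4604 pairs. The estimates given here do not pair samples by mouse. Within labels, 1 of 20 pairs was tested (Ifit3 in Mac_Gpnmb, log2 0.74 ± 0.95, edgeR adjusted p = 0.997) and 0 were called, where 0.0% of all pairs were and 0 members had an unadjusted p under 0.05.

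The last question was how metastasis core compares with the primary tumor. Monocyte Ifit3 was 223, 394, 733 and 1252 CPM in the primary tumors of mice 8, 9, 10 and 38, within the core range of 0 to 1581 CPM, and had an estimated log2 change of -0.65 ± 0.61 SE in the core (95% interval -1.84 to 0.53, edgeR adjusted p = 0.739), or -0.04 with a batch term. T cell Ifit3 was 184, 442, 611 and 490 CPM in the same tumors and 0 to 910 CPM in the core (median 89.5), where 9 of 13 core samples lay below every primary tumor. This change was log2 -0.95 ± 0.57 (edgeR adjusted p = 0.462). None of 18 tested pairs of 24 was called by edgeR or DESeq2, where 1.68% of all pairs were called. An unadjusted p under 0.05 was found for 0 of the 18 and for 1233 of all 8691 pairs. The intervals of single genes leave room for changes of more than 2-fold, and primary tumor cells had more UMIs per cell than core cells.

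No relation of Ifit3 between lineages across mice passed the correction. Over 6 relations (monocytes with T cells and with neutrophils, and T with NK cells, in distal tissue and in metastasis), Pearson's r ran from -0.08 to 0.65. The strongest was T with NK cells in distal tissue (r = 0.65, exact permutation p = 0.1095, Spearman's rho 0.68, exact permutation p = 0.1143, n = 7), and r was 0.61 without the 2 samples farthest from the median. The lowest adjusted p was 0.657. Centred on sequencing batch, the highest r was 0.88, of T with NK cells in metastasis (n = 8, exact permutation p = 0.0179, adjusted p = 0.107), followed in metastasis by 0.60 of monocytes with neutrophils (n = 9, exact permutation p = 0.0895) and 0.53 of monocytes with T cells (n = 13, permutation p = 0.0656). Without the 2 samples farthest from the median, these batch-centred r were 0.94, 0.74 and -0.06 in the same order. Their Spearman's rho was 0.68, 0.23 and 0.48. With 7 to 13 mice, related levels could be missed.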

How the data were processed

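Single immune cells from lungs and primary tumors of 27 mice had been profiled on 148 plates by a 3′ method with UMIs. The deposited counts are raw UMI counts per gene and well, made by the authors from reads demultiplexed with bcl2fastq 2.15.0.4, mapped to mm10 with reads of several mapping positions excluded, assigned to exons and collapsed to distinct UMIs. Cells under 500 UMIs had been discarded and the rest clustered and labelled by the authors. Doublets were excluded in the authors' sort gate, and no caller was run here. Here, counts of the labelled immune cells were summed per mouse, tissue and label or lineage (10 or more cells), leaving out 595 cells labelled as erythrocytes, outliers or tumor. CPM are UMIs per 1000000.

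Tissues were compared with edgeR 4.0.16 (glmQLFit and glmQLFTest, TMM, filterByExpr; R 4.3.3) over all genes of a lineage, each fit holding the 2 tissues compared, with Benjamini-Hochberg adjustment. The mouse gives the pairing: distal and metastasis samples of 1 mouse deviated together in monocytes (mean r 0.28, above 0.1 in 13 of 13 mice) and in neutrophils (mean r 0.30, 5 of 6 mice), less so in T cells (mean r 0.15, 6 of 12 mice), and the block was fitted for mice with both tissues. Alternatives were DESeq2 1.42.0, other scaling and filters, 20 cells per sum, 1000 UMIs per cell, a batch term, the block, and leaving out mice. All members entered every fit. Counts of tested and called pairs are given for each comparison, and estimates for part of the pairs. Other pathway genes were counted by list, with values for a few fixed genes, and like genes were the 5 highest correlations. The members and gene lists were chosen with earlier results of these data known. The fits were tested on simulated data with 200 genes changed by a log2 fold of 2. Between distal tissue and metastasis, 61% of these were recovered in macrophages and 82.5% in neutrophils, the lowest and highest shares. False calls made up 0.735% (monocytes, control against Pre-MET) to 7.3% (neutrophils, distal against metastasis) of calls. Simulated samples were drawn as independent, without the pairing by mouse. Binomial intervals and floors (3 counts) cover counting error only. The p-values measure the spread between samples of a mouse and tissue. In the main fits of distal normal tissue with metastasis or core, and of margin with core, samples of 1 mouse count as independent. Margin and core samples of 1 mouse also deviated together in monocytes (mean r 0.38, above 0.1 in 4 of 5 mice) and T cells (mean r 0.36, 5 of 5 mice).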

Additional observations from a re-analysis of the deposited data

Results flagged for a closer look

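Dixon's test at 95% was run on 71 groups of 4 to 10 samples with 20 or more UMIs of a member. In 10 groups a sample lay far from the rest, each time as the highest value. The test assumes normal values, while these CPM are skewed and include zeros, and the groups share samples. The 10 groups were therefore not set against a chance rate. In dendritic cells, Ifit1 stood out at 578 CPM in the core and 637 CPM in metastasis, both of mouse 23 (13 and 8 UMIs), and at 411 CPM in the primary tumor of mouse 9. In macrophages of metastasis, mouse 37 had 613 CPM of Ifit2 and 425 CPM of Ifit3b, against 198 and 108 CPM in the next samples, from 34 cells. In margin monocytes, mouse 36 had 556 CPM of Ifit3 and 131 CPM of Ifit3b, against 131 and 27.4 CPM in the next samples. Distal normal neutrophils of mouse 17 had 1064 CPM of Ifit3, from 413 cells, and those of mouse 28 had 243 CPM of Ifit2 from 6 UMIs. Relapse-free monocytes of mouse 29 had 109 CPM of Ifit2 from 3 UMIs.

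The change of Ifit3 from distal normal tissue to metastasis was larger in monocytes than in neutrophils of the same mice, by 2.30 on the log2(CPM + 10) scale, in 6 of 6 mice. The exact sign-flip p was 0.03125, the smallest possible, and adjusted over 4 pairs of lineages it was 0.118.

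Wells outside the labelled immune cells also held Ifit3. The 32092 wells under 500 UMIs without a label had 190 CPM, against 278 CPM over all labelled immune cells. The 592 wells left without a cell had 353 CPM, from 3 Ifit3 UMIs. The 336 wells labelled as erythrocytes had 514 CPM. The 95 of these with a member UMI had a summed neutrophil marker level of 101286 CPM, against 41704 CPM in the other 241 wells and 169510 CPM in neutrophils, and a summed hemoglobin marker level of 37161 CPM against 63975 CPM.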

How the results depend on the processing

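Monocyte Ifit3 from distal normal tissue to metastasis stayed called under all 24 alternatives, at log2 changes of 2.19 to 2.76 with metastasis, and 2.96 and 3.19 with the core in its place (edgeR or DESeq2 adjusted p = 2.99e-11 to 0.00313). Counts of called member and lineage pairs in this comparison were 1, 2 with the replicate block, 7 without the filter on low counts, which tests more members, 2 with the core in place of metastasis and 3 with the core and the replicate block. Of all gene and lineage pairs, 2.61% were called in the main fits and 5.93% with the core. Without the filter 1.44% of monocyte genes and 2.68% of macrophage genes were called. In the control against Pre-MET comparison the count was 0 and became 1 without the filter, and leaving out 1 mouse gave 0 to 1 (1 without mouse 3). Margin against core went from 0 to 1 without the filter (macrophage Ifit2, log2 3.46, edgeR adjusted p = 0.00945). For Pre-MET and margin the share of all genes called under these alternatives is not given here. The gained calls were not weighed against it and are not read as a result. The cause of the changes with the block and the core was not tested. The other comparisons, by lineage or label, kept a count of 0 under the alternatives run.

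Neutrophil Ifit3 in metastasis, at -0.05, turned positive with the replicate block (0.55), the core (2.00), the core with the block (1.89), a batch term (0.82), without mouse 17 (0.52) and without mouse 24 (0.04), and was called only with the core and block. Leaving out 1 mouse gave -0.23 to 0.52. The difference of monocytes and macrophages, -0.09, was 0.39 at a pseudocount of 50 and -1.73 at 1. Monocyte Ifit3 from margin to core ranged from 0.97 to 2.42 over 22 alternatives, the highest without mouse 36, and was called in none; the range was 0.71 to 2.48 for neutrophils, also never called. Macrophage Ifit3 in metastasis ranged from 1.72 to 3.15; a minimum of 20 cells leaves 1 distal sum with no Ifit3 UMI, so its fold is not given. No other call changed with the block. Fits on few cells limit what could be seen: 89 distal macrophages in 6 mice bound an undetected gene at 22.3 CPM.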

Other observations

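Of the 94 wells labelled as tumor, which were outside the comparisons, 71 came from primary tumors. These held 477794 UMIs, among them 45 of Ifit1, 39 of Ifit2, 47 of Ifit3 and 17 of Ifit3b. Few wells held them: over all 94, Ifit1 was found in 5, Ifit2 in 4, Ifit3 in 6 and Ifit3b in 2. Tumor-labelled wells of the other tissues held 1 member UMI together, of Ifit3, from the margin. They were counted far less, with at most 16058 UMIs in a tissue (core). In migratory dendritic cells (DC_migDC, 117 cells), 21 of 29 member UMIs were Ifit1, all in 2 cells. In T_CD8_Gzma cells 36 of 65 were Ifit1, 25 of them from 1 core sum of 10 cells. The 73 plasmacytoid dendritic cells (DC_pDC), a cell type known for making type I interferon, had no sum of 10 cells and held 7 member UMIs.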
